A study of Mus musculus with 9 samples.

Results

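The transcriptome of mouse embryonic stem cells (ESCs) was compared between 2 states of the same line: cells in which the endoderm transcription factor SOX17 had been induced with doxycycline for 6 days, and the line without doxycycline. Of 37975 gene rows in the table, 13551 entered the comparison, because both libraries had an estimate with an OK status and at least 1 of them reached 1 FPKM (fragments per kilobase of transcript, scaled to the mapped fragments of the library, so a level per transcript length). A further 4 rows at day 6 were listed at 0 with a failed status for too many fragments, among them the collagen IV chains Col4a1 and Col4a2, and were treated as failed, not as absent. A gene is called higher or lower here when log2(FPKM + 1) differed by at least 2 units, which is 4-fold in FPKM + 1. Each state has 1 library, so no replicate error exists, no test was made, and every count below describes these 2 libraries only. Pairs of levels are given as the uninduced value and then the day 6 value. The mark † at first mention is for rows that share a locus with another gene, 38.9% of the table, whose levels are less certain because reads may be split between genes and use of strand is not stated.

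Both libraries come from ESCs that carry an inducible Sox17 and were grown on mouse embryonic fibroblasts in serum and leukaemia inhibitory factor (LIF), with doxycycline at 100 ng/ml in the induced cells only. The day 6 library bears the word SORT in its name; what was sorted is not given in the sources used here, so 6 days of induction and the sort cannot be told apart. The other 7 of the 9 libraries were the same line at 7, 21, 35 and 49 h of doxycycline, uninduced R1 ESCs, and 2 extraembryonic endoderm (XEN) lines grown in serum with fibroblast-conditioned medium: wild-type XEN (IM8AR) and Sox17-XEN, derived from the Sox17 line. The Sox17-XEN label gives 30 days with doxycycline and 30 days without it, and their order is not fully clear. Sox17 itself stood at 0.909 FPKM without doxycycline and 71.1 at day 6, with 283 FPKM in the 7 h library and 0.163 in R1. The labels call the day 6 cells ESCs.

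SOX17 belongs to the factors that, with GATA4, GATA6 and SOX7, specify the primitive endoderm of the mouse blastocyst. Its descendants form the visceral endoderm, an absorptive epithelium that takes up maternal protein by cubilin and megalin, digests it in lysosomes and secretes lipoproteins and plasma proteins, and the parietal endoderm, migratory cells that lay down the thick basement membrane known as Reichert's membrane. XEN lines are cultured derivatives of this lineage. Naive ESCs, in contrast, are held by the factors OCT4, NANOG and SOX2.

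Regulatory DNA of a few genes that later paragraphs turn on is printed first, because its letters can be read beside the levels. The windows are the 250 bases before the annotated start, from RefSeq on GRCm38.p6, 5′ to 3′ on the gene's strand, in lower case with the searched motif in capitals. Habp2† (0.0569 and 120.0 FPKM), Pcbd1, a dimerization cofactor of HNF1 (3.14 and 105 FPKM), and Afp (0 and 6.04 FPKM) hold GTTAATNAT, the core letters of HNF1 sites. Hnf4a† (0.216 and 36.8 FPKM) and Dpp4† (0.975 and 53.7 FPKM) hold the letters AGATAA, read by GATA factors. Zfp42 (248 and 39.7 FPKM) holds the octamer ATGCAAAT on the opposite strand. They were chosen after their levels were seen.
Habp2, chr19:56287662-56287911, plus strand, match starting 66 bases before the start: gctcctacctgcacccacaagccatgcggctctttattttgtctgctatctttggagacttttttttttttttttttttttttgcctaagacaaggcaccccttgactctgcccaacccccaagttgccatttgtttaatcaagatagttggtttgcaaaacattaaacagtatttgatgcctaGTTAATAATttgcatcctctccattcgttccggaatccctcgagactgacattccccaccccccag
Pcbd1, chr10:61089081-61089330, plus strand, match starting 24 bases before the start: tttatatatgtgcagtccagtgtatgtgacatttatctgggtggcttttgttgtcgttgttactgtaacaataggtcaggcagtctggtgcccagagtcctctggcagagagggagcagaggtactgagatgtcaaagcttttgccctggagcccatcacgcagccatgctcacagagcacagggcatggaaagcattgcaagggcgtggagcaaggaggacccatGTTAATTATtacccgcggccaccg
Afp, chr5:90490464-90490713, plus strand, match starting 105 bases before the start: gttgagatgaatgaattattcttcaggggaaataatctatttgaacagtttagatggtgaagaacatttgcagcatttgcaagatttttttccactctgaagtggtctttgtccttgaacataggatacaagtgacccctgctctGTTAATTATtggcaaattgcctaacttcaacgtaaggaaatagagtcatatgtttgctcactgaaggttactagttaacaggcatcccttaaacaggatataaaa
Hnf4a, chr2:163506607-163506856, plus strand, match starting 52 bases before the start: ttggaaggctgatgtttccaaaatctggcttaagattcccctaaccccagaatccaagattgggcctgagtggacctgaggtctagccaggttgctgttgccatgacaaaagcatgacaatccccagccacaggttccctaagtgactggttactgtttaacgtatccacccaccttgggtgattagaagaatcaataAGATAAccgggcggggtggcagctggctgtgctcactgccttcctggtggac
Dpp4, chr2:62412232-62412481, minus strand, match starting 32 bases before the start: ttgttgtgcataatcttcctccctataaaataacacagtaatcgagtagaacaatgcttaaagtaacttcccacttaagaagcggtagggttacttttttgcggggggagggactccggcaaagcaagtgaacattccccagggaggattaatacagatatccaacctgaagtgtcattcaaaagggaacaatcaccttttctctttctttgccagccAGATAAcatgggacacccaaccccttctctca
Zfp42, chr8:43307010-43307259, minus strand, match starting 186 bases before the start: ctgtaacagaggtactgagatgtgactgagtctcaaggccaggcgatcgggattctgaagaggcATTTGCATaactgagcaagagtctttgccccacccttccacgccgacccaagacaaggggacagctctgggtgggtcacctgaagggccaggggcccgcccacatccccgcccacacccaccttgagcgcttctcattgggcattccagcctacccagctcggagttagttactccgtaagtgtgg

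Over all matched genes these letters were rare. RefSeq promoters were found for 8806 of 12230 protein-coding symbols compared, giving 11349 windows, some of them overlapping starts of the same gene. Searched on both strands, GTTAATNAT was in 9 of 684 windows of higher genes (1.32%), 2 of 451 windows of lower genes (0.443%) and 35 of all windows (0.308%). The octamer ATGCAAAT was in 7 windows of higher genes (1.02%), 19 of lower genes (4.21%) and 147 of all (1.3%). The GATA letters AGATAA were in 6.73% of windows of higher genes, 6.43% of lower genes and 5.64% of all. The E-box TCACGTGA, recognised by the lysosomal regulator TFEB, was in 0.877%, 0.222% and 1.49%. Windows of called genes held fewer CpG dinucleotides, with a median of 12 in higher genes, 10 in lower genes and 16 in all. Of the other strings searched, the HNF4 letters CAAAGTCCA were in 3, 0 and 34 windows of higher, lower and all genes, and the FOXA letters TGTTTAC in 2.34%, 2.88% and 2.06%. The SOX letters CCATTGT were in 2.34%, 2.66% and 1.73%, the AP-1 letters TGACTCA in 3.80%, 5.54% and 3.11%, and TATAAA in 6.43%, 11.5% and 6.3%. None of these strings contains another. Of the windows printed, that of Habp2 also holds the octamer on the opposite strand, overlapping its HNF1 match by 2 bases, that of Pcbd1 holds AGATAA and TATAAA on the opposite strand, and those of Afp and Dpp4 hold TATAAA. A match is a description of letters, not a binding site, and no test of these shares was made.

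Depth differed between the libraries. From the steps between low FPKM values the day 6 library had about 58.2% of the depth of the uninduced library, an estimate on which only 6.65% of low values fell together, and summed FPKM was 589947 at day 6 and 468888 without doxycycline. The deposited confidence intervals were wide: the lower bound was 0 for 98.2% of day 6 values of at least 1 FPKM. Between the uninduced line and R1, which are 2 ESC lines without induction, 0.421% of 13070 genes were higher and 0.26% lower by the same rule.

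At day 6, 771 genes were higher (5.69% of those compared) and 578 lower (4.27%). Of these, 709 and 488 were protein-coding, and 128 and 56 differed by at least 4 log2 units. The median gene differed by 0.17. Rescaling by the median ratio of expressed genes divided the day 6 values by 1.18, a shift of 0.24 log2 for abundant genes and of less for low ones, and left 593 higher (4.42%) and 661 lower (4.93%), so that the share of called genes that were higher went from 57.2% to 47.3%. The direction of the balance therefore depends on the scaling, and group counts below are given with the rescaled count where it differs by more than a member. Group counts near the shares of all genes, 5.69% higher and 4.27% lower, describe members and are no result about a group. All gene lists were written with earlier results of these data known, which favours counts above those shares. Group medians are unscaled, and small positive ones can change sign with it. The mark ‡ at first mention is for genes higher as deposited but under 2 after rescaling. The 771 higher genes held 1.97% of summed FPKM without doxycycline and 16.4% at day 6, while the 578 lower genes held 5.10% and 0.479%. The directions of these shares follow from the rule that picked the genes. Summed FPKM is scaled by transcript length and is not a share of RNA mass.

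**Figure D1:**
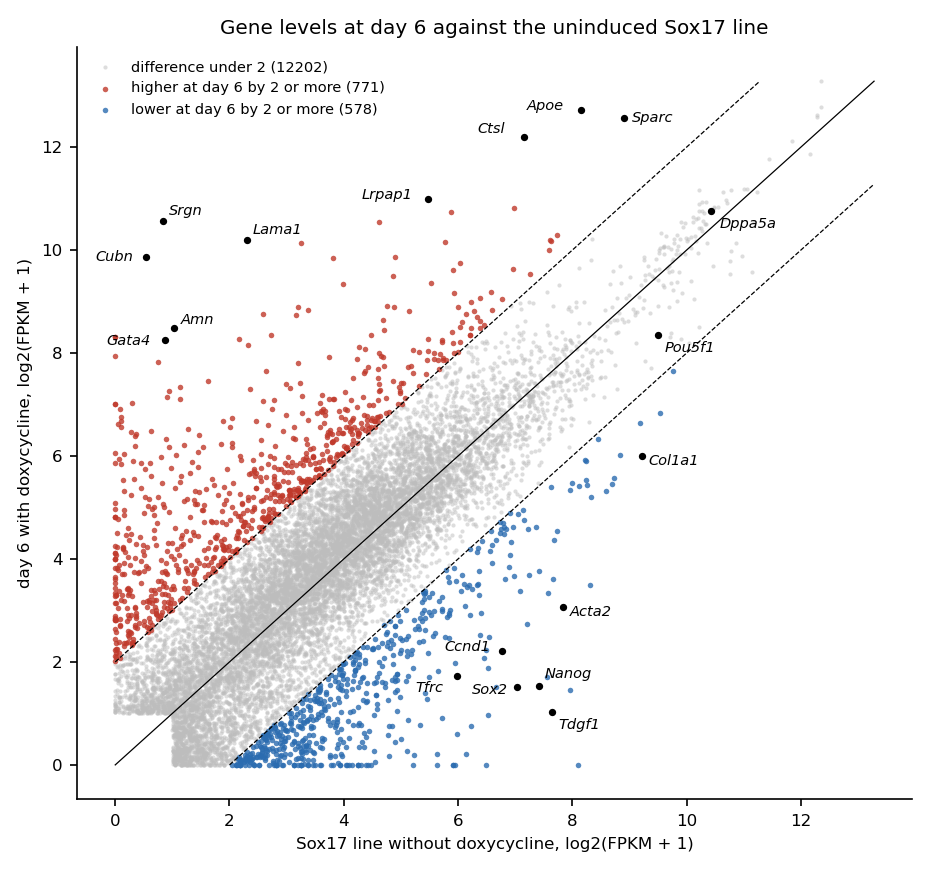
Each point is 1 of 13551 genes, with log2(FPKM + 1) in the uninduced line on the horizontal axis and at day 6 on the vertical axis; the solid line is equality and dashed lines are differences of 2. The 771 higher genes (red) spread up to Srgn and Cubn near the left edge, and the 578 lower genes (blue) include Tdgf1, Nanog and Sox2, while Dppa5a lies on the line.

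The 15 largest differences upward among protein-coding genes ran from 6.25 to 9.74. Srgn, the core protein of an intracellular proteoglycan, stood at 0.781 and 1517 FPKM, a difference of 9.74. Cubn†, the cubilin receptor, stood at 0.448 and 939 FPKM, a difference of 9.34. Lama1, the laminin α1 chain, stood at 3.92 and 1169 FPKM, a difference of 7.89. Next came Amn (7.44), Gata4 (7.38), the RNA export factor relative Nxf7 (7.08), the endocytic adaptor Dab2† (6.90), the serine protease Habp2 (6.84), galectin 2 (Lgals2†, 6.74), the hexokinase relative Hkdc1 (6.64), β-Klotho (Klb, 6.58), the calcium-binding S100g† (6.58), the water channel Aqp8 (6.46), pepsinogen (Pga5, 6.32) and the heparan sulfate sulfotransferase Hs3st1 (6.25). Of these 15 genes, only Lama1 and Dab2 exceeded 2 FPKM in the uninduced line.

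Downward, the largest difference was Tdgf1, the Nodal co-receptor Cripto, at 199.9 and 1.04 FPKM, a difference of -6.62. Trh, the thyrotropin-releasing hormone precursor, stood at 247 and 1.74 FPKM, a difference of -6.50. After it came the hydroxysteroid dehydrogenase Hsd17b14 (-5.92), Nanog (-5.88), the interferon-induced membrane protein Ifitm1 (-5.85), the phospholipase Pla2g1b, which was listed at 0 at day 6 (-5.63), the chemokine Ccl2† (-5.55), Sox2† (-5.54), the cationic amino acid transporter Slc7a3 (-5.48), Rasgrp2† (-5.43), the ubiquitin hydrolase Uchl1† (-5.37), the Nodal inhibitor Lefty1 (-5.14), the tubulin Tubb3† (-5.04), Fgf4 (-4.84) and the calcium-binding S100a4 (-4.82). The list mixes ESC genes with genes of mesenchymal cells, which are taken up again below with the feeder markers.

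Among the most abundant RNAs, 74 genes were in the top 100 protein-coding genes of both libraries. Of the day 6 top 100, 19 were higher, and those 19 held 6.44% of summed FPKM. Apoe, a lipid carrier, ranked 3 of all genes at day 6 and 204 in the uninduced line, with 282 and 6772 FPKM. Sparc, a matrix glycoprotein of parietal endoderm, ranked 6 and 133. Ctsl, the lysosomal protease cathepsin L, ranked 7 and 463, and Lrpap1, the chaperone of megalin-type receptors, ranked 17 and 1882. Dppa5a, an ESC RNA, kept its place at 28 and 27. Apoe, Sparc, Ctsl and Lrpap1, higher genes of secretion, matrix, lysosome or uptake, were named after their ranks were seen. A ranking on day 6 levels favours higher genes, which were 5.69% of all genes.

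Markers of endoderm and of ESCs were both present at day 6. Gata4 stood at 0.655 FPKM in R1, 0.824 in the uninduced line, 1.96, 4.57, 13.1 and 32 at 7, 21, 35 and 49 h, 303 at day 6, 659.6 in Sox17-XEN and 337 in wild-type XEN. Amn, the partner that carries cubilin to the membrane, stood at 0.865 FPKM in R1, 1.05 in the uninduced line, 0.602, 4.33, 4.52 and 7.06 at 7, 21, 35 and 49 h, 356 at day 6, 0.68 in Sox17-XEN and 0.823 in wild-type XEN. Lrp2, megalin, stood at 2.23 FPKM in R1, 3.51 in the uninduced line, 9.33, 9.38, 5.72 and 10.4 at 7, 21, 35 and 49 h, 307 at day 6, 9.0 in Sox17-XEN and 20.7 in wild-type XEN. For Amn and Lrp2 day 6 was above all other libraries, both XEN lines included, while Gata4 had larger values in both XEN lines. Tdgf1 was at 199.9 FPKM in the uninduced line, 89.2 at 49 h and 1.04 at day 6. Dppa5a stood at 2625 FPKM in R1, 1375 in the uninduced line, 1069, 823, 968 and 937 at 7, 21, 35 and 49 h, 1733 at day 6, 1.87 in Sox17-XEN and 3.27 in wild-type XEN. The day 6 library thus held endoderm markers together with an ESC marker at or above its uninduced level, and bulk RNA does not show whether single cells held both. In such bulk samples fewer cells of a type and less RNA per cell cannot be told apart.

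**Figure D2:**
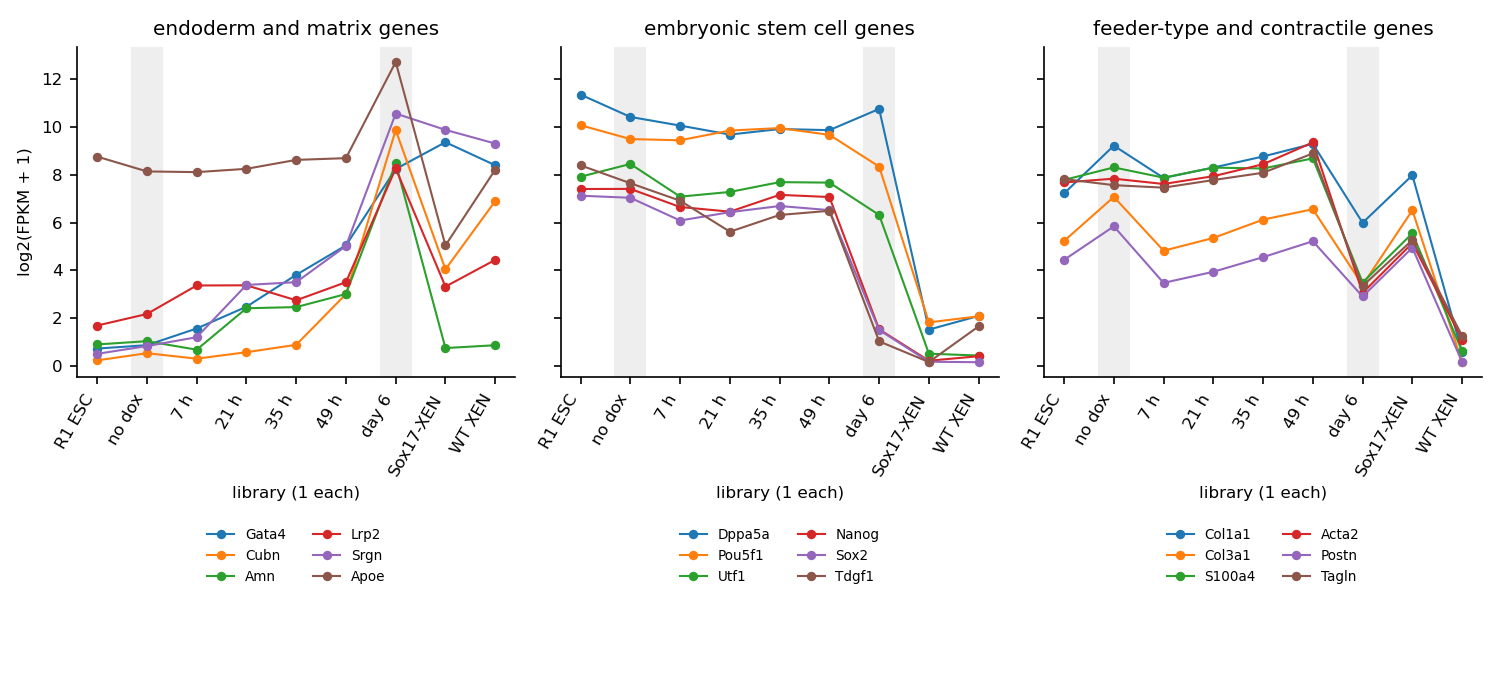
Points are log2(FPKM + 1) of 18 genes in the 9 libraries, 1 library each, with the uninduced and day 6 libraries shaded; lines join points of a gene only to guide the eye, since XEN lines are not later times. At day 6 all 6 endoderm and matrix genes are above 8, the ESC genes split between Dppa5a and Pou5f1, above 8, and Nanog, Sox2 and Tdgf1, below 2, and the feeder-type genes lie below their ESC levels.

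Nearly every gene on the list for primitive endoderm regulators was higher. The list was written with earlier results of these data known, which favours such a count. It also holds the uptake genes Dab2 and Lrpap1 and the co-receptor Klb, which are not regulators. Sox17, the gene that doxycycline induces, is a member too, and the design favours its call. Of 14 compared, 13 were higher and none lower, with a median difference of 5.7 against 0.17 for all genes. The transcription factor genes Cited1 (6.19), Foxq1† (6.19), Gata6† (6.06), Sox7 (5.23), Hnf4a (4.96) and Foxa2 (4.34) were all higher. Hnf4a, a regulator of secretory genes of visceral endoderm, stood at 0.15 FPKM in R1, 0.216 in the uninduced line, 0.192, 0.212, 0.444 and 1.7 at 7, 21, 35 and 49 h, 36.8 at day 6, 25.4 in Sox17-XEN and 14.8 in wild-type XEN. Hnf4a was thus under 2 FPKM through 49 h and above both XEN lines at day 6. Pdgfra, the receptor that marks primitive endoderm, stood at 5.0 and 134 FPKM, a difference of 4.49. Eomes, at 2.53 and 6.57 FPKM, was the member that did not pass.

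Other factor families were called in both directions. Among 10 Sox genes only Sox7 and Sox17, the induced gene, were higher. Sox2, the ESC gene Sox15† (13.7 and 0.867 FPKM) and Sox12 (12.5 and 1.92 FPKM) were lower. Of 23 forkhead genes, Foxa2 and Foxq1 were higher and Foxd3†, Foxp1† and Foxi3 lower. Of 54 homeobox and POU genes, Hhex (2.29) and Msx2‡ (2.11) were among 3 higher, and Otx2 (-2.19) and Six4 (-2.51) were lower. The nuclear receptor genes of the naive state, Nr0b1 (32.9 and 2.09 FPKM) and Nr5a2 (8.75 and 0.0863 FPKM), were lower. Among 319 zinc-finger genes named Zfp, 2 were higher and 10 lower, with a median of 0.19 beside 0.17 for all genes.

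Receptors and scaffolds of the absorptive surface were mostly higher. This list, too, was written with earlier results of these data known, and it holds the markers Amn and Lrp2. Of 32 genes for apical uptake and brush border, 20 were higher and none lower, with a median of 2.39. Cubilin, amnionless, megalin, Dab2 and Lrpap1, which act together in protein uptake, were all among them, at 8.52 and 1133 FPKM for Dab2 and 43.5 and 2034 FPKM for Lrpap1. The apical sialomucin Podxl (7.98 and 428 FPKM) and the surface peptidases Dpp4 (4.79), Ggt1† (4.55), Enpep (3.74) and Mme (2.95) were higher too. The microvillus genes Cdhr2 (0.0441 and 9.44 FPKM) and Eps8l3† (0 and 4.46 FPKM) passed at much lower levels. The folate receptor Folr1, already at 24.8 FPKM in the uninduced line, reached 242.

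Behind the surface, 7 of 45 clathrin and endosome genes were higher and 1 lower, with a median of 0.82. Myo6, the motor that moves uncoated endocytic vesicles, stood at 3.98 and 284 FPKM, a difference of 5.84. The sorting nexins Snx1 (2.84) and Snx2 (2.54) and the recycling GTPase Rab11a (2.52) were higher. The epithelial adaptor subunit Ap1m2† stood at 12.1 and 67.8 FPKM and at 0.042 FPKM in wild-type XEN. The exception was the caveolar coat gene Cav1†, at 56.4 and 4.55 FPKM, a difference of -3.37. Of 47 Rab genes, 4 were higher, Rab20†, Rab17, Rab11a and Rab6b‡, and Rab25 was lower.

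Lysosomal genes were higher at high abundance. Of 45 hydrolases and membrane proteins, 22 were higher and none lower (20 and 1 after rescaling), with a median of 1.89, and their share of summed FPKM was 0.343% without doxycycline and 2.34% at day 6. Lgmn, legumain, stood at 23.6 FPKM in R1, 23.5 in the uninduced line, 17.4, 20.6, 23.3 and 33.8 at 7, 21, 35 and 49 h, 1490.5 at day 6, 344 in Sox17-XEN and 1575 in wild-type XEN. Ctsl stood at 160.2 FPKM in R1, 141 in the uninduced line, 99.4, 124, 157 and 273 at 7, 21, 35 and 49 h, 4715 at day 6, 1665 in Sox17-XEN and 1490.3 in wild-type XEN. In both genes day 6 was above every other library of the Sox17 line, and Lgmn alone reached the same level in wild-type XEN. Ctsh (8.14 and 473 FPKM), Ctsc† (5.61 and 323 FPKM), Neu1 (4.26) and the phospholipase-like Plbd1 (0.527 and 57.4 FPKM) were higher as well.

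Within the cathepsins the difference was uneven. Ctsl, Ctsh, Ctsc, Ctsz† (3.71) and Ctsa† (3.23) passed, out of 10. The general lysosomal proteases Ctsb† (44.7 and 146 FPKM) and Ctsd† (203 and 484 FPKM) did not, and Ctsk, the collagen-degrading cathepsin, stood at 9.06 and 1.77 FPKM. Among 19 genes of the vacuolar proton pump 3 were higher: Atp6v0a1 (12.3 and 241 FPKM), Atp6ap2 (2.37) and Atp6v0b†‡ (2.13). The alternative a subunits were not, with 8.52 and 7.94 FPKM for Atp6v0a2† and 2.12 and 0.745 FPKM for Atp6v0a4†.

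Visceral endoderm markers and genes of lipid carriers had many higher members, while plasma protein genes were called in both directions. Of 24 visceral endoderm markers, 20 were higher and none lower (median 4.25), and of 29 genes of lipoprotein assembly and lipid transport, 13 were higher and 1 lower (median 1.19). Fabp3†, a fatty acid binding protein, stood at 28.8 and 929 FPKM, a difference of 4.96, and its relative Fabp5 at 31 and 3.67 FPKM, a difference of -2.77. Apoc1 stood at 39.6 FPKM in R1, 18.3 in the uninduced line, 18.4, 18.9, 19.3 and 19.8 at 7, 21, 35 and 49 h, 275 at day 6, 0.223 in Sox17-XEN and 0.415 in wild-type XEN, so that day 6 was the one library above 40 FPKM. The coagulation genes F2, prothrombin (0.441 and 52.6 FPKM), Tfpi (26.1 and 479 FPKM) and Fgb (0.00702 and 8.84 FPKM) were among 9 of 21 that were higher, with Plau, urokinase, lower (-2.39). The vitamin K cycle enzymes Vkorc1† (2.60) and Ggcx (2.30) were among the 9. Of 10 complement genes, C2†, Clu and Serping1 were higher and Masp1 lower. Among liver-type plasma protein genes, Rbp4 (4.23) and Ttr† (4.01) were higher and Igfbp2 lower (-3.55). Trf† (0.82), Igfbp4 (0.17) and Angptl4 (-1.92) were not called.

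Genes of metal and vitamin handling differed in both directions. Tfrc, the transferrin receptor that imports iron, stood at 53.3 FPKM in R1, 62.1 in the uninduced line, 58.1, 49.3, 57.6 and 55.9 at 7, 21, 35 and 49 h, 2.32 at day 6, 20 in Sox17-XEN and 50.2 in wild-type XEN, so day 6 was the lowest of the 9 libraries. The iron-regulating hormone inducer Bmp6† stood at 0.372 and 40.7 FPKM, a difference of 4.92, and the zinc importers Slc39a8 (3.75) and Slc39a4 (2.71) were higher. Of 25 genes in the class, 4 were higher and 1 lower. For retinoids, the degrading enzyme Cyp26a1 stood at 0.535 and 88.6 FPKM, a difference of 5.87, the retinol receptor Stra6† at 0.165 and 15.4 FPKM and the carrier Rbp4 at 0.786 and 32.6 FPKM, while the receptor Rarg was lower (40.3 and 5.97 FPKM).

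Solute carriers are the largest transporter family, with 212 compared. Of these 31 were higher (26 after rescaling) and 4 lower, with a median of 0.68. The choline transporter-like Slc44a3† (0.241 and 59 FPKM), the phosphate importer Slc34a2† (0.0333 and 26.3 FPKM), the citrate importer Slc13a5† (0.484 and 31.5 FPKM) and the prostaglandin carrier Slco2a1† (1.76 and 38.4 FPKM) led. The glucose transporter Slc2a3† was already abundant, at 212 and 1256 FPKM. Slc7a3 was the largest difference downward in the family, at 106 FPKM in R1, 74.1 in the uninduced line, 54.8, 6.71, 13.2 and 16.5 at 7, 21, 35 and 49 h, 0.685 at day 6, 3.39 in Sox17-XEN and 0.264 in wild-type XEN; it was below its 7 h level from 21 h on. Of 21 aquaporin and chloride channel genes, Aqp8 (0.0736 and 93.4 FPKM), Clic6† (0.266 and 82.5 FPKM) and Clic5 (4.09) were among 5 higher.

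Basement membrane genes differed in both directions. Of 23 compared, 9 were higher and 3 lower (7 and 4 after rescaling), with a median of 0.58. The chains of laminin 111 were all higher: Lama1 at 3.92 and 1169 FPKM, Lamb1† at 58.1 and 1705 FPKM, a difference of 4.85 and Lamc1† at 54 and 1134 FPKM, a difference of 4.37. All of these have failed values in both XEN lines, so no comparison with them was made. Sparc stood at 478 and 6058 FPKM, a difference of 3.66, perlecan (Hspg2) at 76.6 and 449 FPKM, agrin (Agrn‡) at 52.4 and 239 FPKM and Nid2† at 73.9 and 510.5 FPKM, a difference of 2.77, while Nid1 differed by 1.80. Lower were Col18a1† (113 and 11.2 FPKM), Fbln2 (319 and 36 FPKM) and Smoc2 (-2.66). Of 17 parietal endoderm markers, 10 were higher and 2, Vim and Grem1, lower (median 2.77). The parathyroid hormone receptor Pth1r was among the higher ones, at 2.09 and 175 FPKM. Plat (11.1 and 13.6 FPKM), Thbd (8.77 and 5.94 FPKM) and Fst (15 and 7.41 FPKM) were among those not called. In wild-type XEN Plat, Thbd and Fst stood at 248, 134 and 711 FPKM.

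Collagen processing enzymes also differed in both directions. Of 25 compared, 10 were higher and 6 lower. Higher were enzymes that hydroxylate and fold procollagen inside the cell, with P4ha1 at 34.3 and 449 FPKM, P4ha2 at 25.2 and 348 FPKM, Plod2 at 21.2 and 327 FPKM, the chaperone Serpinh1 at 125 and 1809 FPKM and the prolyl 3-hydroxylase Leprel1† at 0.441 and 36 FPKM. The lysyl oxidases crosslink collagen outside the cell, and 4 of them were lower, with Lox at 119.7 and 15.9 FPKM, Loxl1 at 32.9 and 4.44 FPKM, Loxl3† at 51.6 and 7.17 FPKM and Loxl4 at 5.2 and 0.523 FPKM. Pcolce†, which enhances removal of procollagen ends, stood at 125 and 11.8 FPKM, and P4ha3 at 14.2 and 1.32 FPKM. These lower enzymes moved with the feeder markers given below, and their part was not tested.

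Proteoglycan genes were higher in 8 of 36 and lower in 2. The glypican Gpc3† stood at 13 and 920.0 FPKM, a difference of 6.04 and the syndecan Sdc4 at 23.4 and 205 FPKM. Bgn, biglycan, was lower at 583 and 99.2 FPKM. Of 19 integrin genes only Itga11, a collagen receptor of fibroblasts, passed, and it was lower (-2.29).

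The secretory pathway differed broadly but by less. Among 34 chaperones and stress genes of the endoplasmic reticulum (ER), 6 were higher (4 after rescaling) and none lower, but the median was 1.59, and among 42 genes of ER to Golgi transport, 7 were higher (3 after rescaling) with a median of 1.46. The cargo receptor gene Mia2 stood at 0.0213 and 13.2 FPKM, a difference of 3.80. The retrieval receptor Kdelr3† (19.6 and 195 FPKM), the ER stress factors Creb3l2 (5.57 and 62.7 FPKM) and Atf6† (4.83 and 34 FPKM) and the disulfide isomerase P4hb (192 and 1024 FPKM) were higher. Glycosyltransferase genes were higher in 8 of 66 (5 after rescaling) and lower in 1, with a median of 0.87, led by the sialyltransferase St6galnac3† (4.33).

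**Figure D3:**
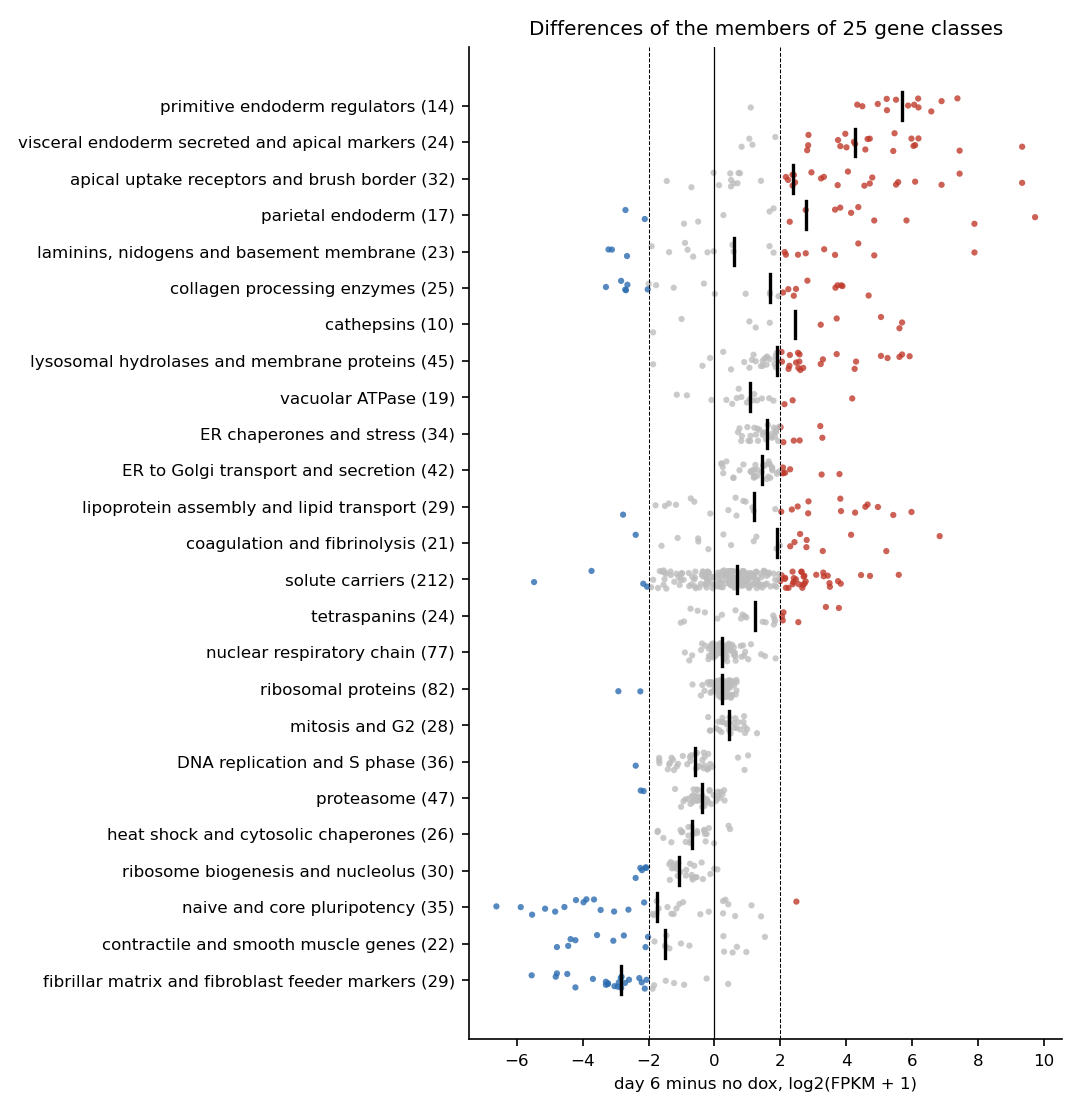
Each point is a gene, placed by day 6 minus uninduced log2(FPKM + 1) within 25 of 89 gene classes (members compared in brackets); red and blue mark differences of at least 2, and black bars are medians. Endoderm, uptake, lysosome and secretory classes have medians above 0, ribosomal proteins and respiratory chain genes cluster near 0, and pluripotency, contractile and feeder classes have medians below -1.

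Genes of the Nodal and BMP pathways were called in both directions. Of 40 compared, 3 were higher and 10 lower. Among BMP ligands, Bmp2 stood at 0.0819 and 12.1 FPKM and Bmp6 at 0.372 and 40.7 FPKM, whereas Bmp4† was lower at 14.8 and 2.2 FPKM. The BMP target Id3 was lower (30.7 and 5.98 FPKM), and Id1 differed by 1.24. The Nodal components Tdgf1, Lefty1 (99.9 and 1.86 FPKM), Lefty2 (60.8 and 2.93 FPKM) and Gdf3 (19 and 0.353 FPKM) were all lower, as were the activin chains Inhba (-2.96) and Inhbb (-2.41).

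The hedgehog ligand and the target genes of the pathway differed in opposite directions. Ihh, a ligand of visceral endoderm, stood at 0.0869 FPKM in R1, 0.122 in the uninduced line, 0.0837, 0.141, 0.0662 and 0.176 at 7, 21, 35 and 49 h, 16.6 at day 6, 7.12 in Sox17-XEN and 2.37 in wild-type XEN. Gli1†, the transcriptional target and effector of the pathway, stood at 27.2 FPKM in R1, 22 in the uninduced line, 25.1, 15.2, 9.88 and 7.02 at 7, 21, 35 and 49 h, 0.201 at day 6, 0.495 in Sox17-XEN and 0.102 in wild-type XEN. Gli2 (13.8 and 0.258 FPKM) was lower with it. Gli1 was below its 7 h level from 21 h on, and Ihh was under 1 FPKM through 49 h. A link between these levels was not tested. In the whole hedgehog and Notch class, 1 of 22 was higher and 6 lower.

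Among FGF genes, 6 of 20 were higher and 4 lower, and receptors were on both sides. Fgfr3 (0.503 and 35 FPKM) and Fgfr4 (0.609 and 31.4 FPKM), with the co-receptor Klb (0.0686 and 102 FPKM), were higher, and Fgfr1†, a receptor for FGF4 in ESCs, was lower (44.1 and 8.55 FPKM). In wild-type XEN Fgfr3 was at 46.1 FPKM and Fgfr1 at 0.491. Among ligands Fgf10† (3.43) and Fgf3 (2.83) were higher and Fgf4 (33.6 and 0.21 FPKM), Fgf15† (13.9 and 0.0217 FPKM) and Fgf17 (12.6 and 0.117 FPKM) lower. Of 28 ERK output genes, the feedback genes Dusp6 (23.2 and 3.87 FPKM) and Etv5 (121 and 19 FPKM) and Myc (29.5 and 1.75 FPKM) were lower, and the immediate early genes Fos (3.52 and 37.5 FPKM) and Fosb (0.482 and 13.3 FPKM) higher. The day 6 library is the one named SORT, and the part of a sort in these immediate early genes was not tested.

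Of 38 Wnt genes, the inhibitors Dkk1 (0.0958 and 45.4 FPKM) and Sfrp5 (0.513 and 8.15 FPKM) and the ligand Wnt11† (0.998 and 18.9 FPKM) were higher. Lower were the pathway factor Lef1 (6.71 and 0.108 FPKM), the feedback enzyme Notum† (11.4 and 0.254 FPKM), Sfrp2† (-2.27), Wnt7b† (-2.18) and cyclin D1 (Ccnd1†, 109 and 3.66 FPKM). In the insulin-like growth factor axis Igf2† (8.44 and 170.1 FPKM) and Igf1† (0.344 and 20.5 FPKM) were higher and the binding proteins Igfbp2 (151 and 12 FPKM) and Igfbp3 (15.4 and 1.52 FPKM) and the protease Pappa lower. Of 24 genes of LIF and STAT3 signalling, none was higher and Pim1† and Csf1 were lower.

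Of 25 tight junction genes, 5 were higher and 2 lower, and of 13 cadherin and catenin genes, 1 each. Cdh1, E-cadherin, stood at 71.2 FPKM in R1, 96.8 in the uninduced line, 52.7, 119, 152 and 124 at 7, 21, 35 and 49 h, 105 at day 6, 2.83 in Sox17-XEN and 1.63 in wild-type XEN. Its day 6 level was that of the ESC libraries, and far above both XEN lines. The claudins Cldn6 (45.2 and 657 FPKM, a difference of 3.83) and Cldn7 (11 and 93.2 FPKM) and occludin (Ocln, 1.46 and 27.3 FPKM) were higher, while Cldn4 (41.8 and 1.65 FPKM) was lower. Cdh6 was higher (0.176 and 19.7 FPKM), and the mesenchymal cadherin Cdh11† lower (30.5 and 3.53 FPKM).

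Keratins and vimentin differed in opposite directions. The simple epithelial keratins Krt8 (15.2 and 119.6 FPKM) and Krt18 (11.3 and 114 FPKM) were higher, and Vim, vimentin, stood at 305 FPKM in R1, 745 in the uninduced line, 367, 387, 429.7 and 539.9 at 7, 21, 35 and 49 h, 114 at day 6, 567 in Sox17-XEN and 665 in wild-type XEN. Vimentin was thus at its lowest value at day 6 among the 9 libraries, including wild-type XEN, where it was 665 FPKM. Among 28 genes of the switch between epithelium and mesenchyme, 4 were higher and 6 lower (8 after rescaling). Snai1 (8.52 and 45.5 FPKM) and Elf3† (16.5 and 134 FPKM) were higher, and Snai2 (8.46 and 0.676 FPKM), Zeb1† (1.96 and 0.348 FPKM) and the epithelial Grhl2† (19.5 and 0.536 FPKM) lower. The tubulins Tubb3 (36.7 and 0.148 FPKM), Tubb2b (91.7 and 4.61 FPKM) and Tuba1a (300.2 and 45 FPKM) were lower. Of 23 S100, annexin and galectin genes, 4 were higher, among them S100g, S100a1 and Anxa4, and 5 lower, namely S100a4, S100a6 (385 and 38.8 FPKM), Lgals1 (421 and 46.7 FPKM), Anxa6 and Anxa1. Feeder markers summed to 1899 FPKM in the uninduced library and 163 at day 6, and their part in the lower mesenchymal genes was not tested.

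ESC genes ranged from RNAs that were low at day 6 to RNAs that remained abundant, with Zfp42 (39.7 FPKM) and Dppa4 (27.6 FPKM) between. Of 35 naive and core pluripotency genes, 14 were lower (16 after rescaling) and 1 higher, Tbx3†, with a median of -1.75. Nanog stood at 169 FPKM in R1, 169 in the uninduced line, 99.7, 87, 142 and 134 at 7, 21, 35 and 49 h, 1.89 at day 6, 0.163 in Sox17-XEN and 0.325 in wild-type XEN. Sox2 stood at 139 FPKM in R1, 131 in the uninduced line, 67, 85.7, 103 and 91 at 7, 21, 35 and 49 h, 1.84 at day 6, 0.129 in Sox17-XEN and 0.114 in wild-type XEN. Pou5f1† stood at 1079.9 FPKM in R1, 723 in the uninduced line, 698, 927, 994 and 817 at 7, 21, 35 and 49 h, 325 at day 6, 2.54 in Sox17-XEN and 3.22 in wild-type XEN. Nanog and Sox2 were at 67 FPKM or more through 49 h and under 2 FPKM at day 6, whereas Pou5f1 kept 325 FPKM. Klf4, Klf5 and Lin28a† differed by 1.13, 1.42 and 0.26, and Klf2 (39.4 and 0.719 FPKM) and Dppa3 (26.5 and 0.494 FPKM) were lower. Of 16 formative genes 6 were lower, Otx2 and Lef1 among them, and Car4 (14.8 and 652 FPKM) was higher.

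A second view used levels in libraries outside the comparison. A set of 26 genes was at 50 FPKM or more in R1 and the uninduced line and under 5 FPKM in both XEN lines. At day 6, 5 of them were still at 50 FPKM or more: Dppa5a, Pou5f1, the DNA methylation cofactor Dnmt3l† (155 and 252 FPKM), Cdh1 and Utf1 (351 and 79 FPKM). Another 15 were under 5 FPKM and 6 lay between. The median of the 26 was 98.4 FPKM in the uninduced line and 3.67 at day 6. Since the set was picked on the uninduced library, lower values are favoured in it.

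The fibroblast feeder and contractile classes were lower as groups. Of 29 fibrillar matrix and feeder genes, 22 were lower (24 after rescaling) and none higher, with a median of -2.83, and of 22 contractile genes, 9 were lower (median -1.49). Col1a1†, the collagen I chain, stood at 148 FPKM in R1, 597 in the uninduced line, 233, 315, 436 and 629 at 7, 21, 35 and 49 h, 62.7 at day 6, 252 in Sox17-XEN and 0.49 in wild-type XEN. Acta2, smooth muscle actin, stood at 204 FPKM in R1, 228 in the uninduced line, 195, 245, 348 and 656 at 7, 21, 35 and 49 h, 7.33 at day 6, 34.3 in Sox17-XEN and 1.15 in wild-type XEN. Both were at or above the uninduced level at 49 h, low at day 6 and lowest in wild-type XEN. Of the 12 fixed feeder markers, 8 were lower, none was listed at 0, and Pdgfrb (-1.83), Twist2 (-1.88), Dcn (-0.24) and Lum (-0.92) did not pass. Their summed FPKM was 840 in R1, 1899 in the uninduced line, 910 to 2339 at 7 to 49 h, 163 at day 6, 716 in Sox17-XEN and 18.3 in wild-type XEN. RNA of feeder cells and of the Sox17 line cannot be told apart in these libraries. Leaving out the 49 genes of both classes left 771 higher and 549 lower of 13502.

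Chemokine and interferon-type genes split as well. Ccl2 (91 and 0.964 FPKM), Ccl7 (49.4 and 2.54 FPKM) and Cxcl5 (14.7 and 0.132 FPKM), which fibroblasts also make, were lower, and Cxcl10† (0.164 and 8.89 FPKM) and Cxcl16† (1.68 and 13.2 FPKM) higher. Ifi30, a lysosomal thiol reductase, stood at 28 and 726 FPKM, a difference of 4.65, and the MHC class I chain B2m†‡ at 73.3 and 324 FPKM. Ifitm1 (186 and 2.26 FPKM), Ifitm3 (203 and 11.2 FPKM) and Ifitm2 (278 and 41.6 FPKM) were lower.

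The 4 blood markers summed to 0.244 and 0.367 FPKM, with 2 of them listed at 0 at day 6. The 3 endothelial markers summed to 12 and 6.05 FPKM, and the 3 trophoblast markers to 0.739 and 1.87 FPKM. In the wider trophoblast list 5 of 12 were higher, of which Krt8 and Krt18 are also epithelial, Tead4‡ stood at 4.92 and 23.7 FPKM, Plac1 at 0.114 and 8.12 FPKM and Esx1 at 0.845 and 10 FPKM, and the trophoblast regulator Tfap2c was lower (22.7 and 1.57 FPKM). Of 10 neural genes none was higher and 3 were lower. Runx1† (1.9 and 30.1 FPKM) and Esam (1.32 and 34.1 FPKM) were higher in the mesoderm list, and the primitive streak gene T was lower (7.71 and 0.352 FPKM).

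Of 30 ribosome biogenesis genes, 5 were lower and none higher, with a median of -1.06, and the class held 1.07% of summed FPKM in the uninduced line and 0.431% at day 6. Those 5 were Rrp12 (27.2 and 4.38 FPKM), Ddx21 (113 and 23.1 FPKM), Bop1†, Heatr1 and Ubtf. Heat shock and cytosolic chaperones had a median of -0.67 with no call among 26, and Hsp90aa1 stood at 1194 and 362 FPKM, a difference of -1.72. Ribosomal proteins differed by a median of 0.23 over 82 genes, with only the copies Rpl10l and Rpl39l lower.

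Cell cycle genes did not move together. The median was -0.58 over 36 DNA replication genes, with Ccne1 lower (141 and 26.1 FPKM), and 0.45 over 28 mitosis genes, with no call. At the G1 step Ccnd1 was lower, the inhibitor Cdkn1b‡ was higher (9.44 and 46.1 FPKM; under 2 after rescaling), Gadd45b was higher (5.31 and 39.6 FPKM) and Trp53 was lower (196 and 41.3 FPKM). In wild-type XEN Trp53 was at 52.6 FPKM and Cdkn1b at 53.2.

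Genes of energy metabolism were read next. None of 77 nuclear respiratory chain genes and none of 23 genes of the citrate cycle was called, with medians of 0.23 and 0.34. Fatty acid oxidation had a median of 0.82 over 24 genes, with Cpt2 (8.72 and 44.7 FPKM) and Slc25a20 among 3 higher. Me1†, which makes NADPH for lipid synthesis, stood at 12.3 and 138 FPKM, a difference of 3.38, and Scd1 was higher (18.6 and 99.2 FPKM). In cholesterol synthesis Insig1 was higher (30.3 and 161 FPKM) and Idi1 lower (41.8 and 5.17 FPKM) among 24. Of all genes, 5.69% were higher and 4.27% lower. The transsulfuration enzymes Cth (27.8 and 0.68 FPKM) and Cbs (14 and 1.46 FPKM) were lower.

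Chromatin and imprinted genes were called in both directions, beside 5.69% higher and 4.27% lower of all genes. Of 46 Polycomb and histone modifiers, Ezh1 (9.02 and 59.9 FPKM) and Pcgf5† (5.87 and 46.1 FPKM) were higher and Phc1 (169.7 and 12.5 FPKM) and Phf19† (6.13 and 0.47 FPKM) lower. The demethylation enzyme Tet1† was lower (45.6 and 9.08 FPKM). Of 35 imprinted genes 5 were higher and 5 lower. Meg3† (152 and 739 FPKM), Rian†‡ (73.2 and 326 FPKM) and Mirg†‡ (9.25 and 46 FPKM), non-coding RNAs of a single imprinted domain, were higher and under 1 FPKM in wild-type XEN. After rescaling 3 imprinted genes were higher; Meg3 kept its call, and Rian and Mirg were under 2. Phlda2 (-3.67), Mest† (-3.05) and Plagl1 (-2.36) led the lower ones. The 2-cell-state genes Zscan4c (-2.43), Zscan4d (-2.83) and Zscan4f (-2.63), near-identical copies whose reads may be split, were lower.

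The higher and lower genes were then read in the other libraries. The median of the protein-coding higher genes was 3.22 FPKM in R1, 4.20 in the uninduced line, 4.14, 5.63, 6.23 and 7.23 in order of the hours of doxycycline, 40.7 at day 6, 23.3 in Sox17-XEN and 26.5 in wild-type XEN. The lower genes had medians of 14.2 in R1, 15.7 in the uninduced line, 11.7 to 12.2 at 7 to 49 h, 1.38 at day 6, 1.78 in Sox17-XEN and 0.340 in wild-type XEN. The level at day 6 thus lay on the side of the XEN lines for both sets. The choice of genes fixes the direction between the uninduced and day 6 libraries, but not the levels in R1, the earlier times and the XEN lines.

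**Figure D4:**
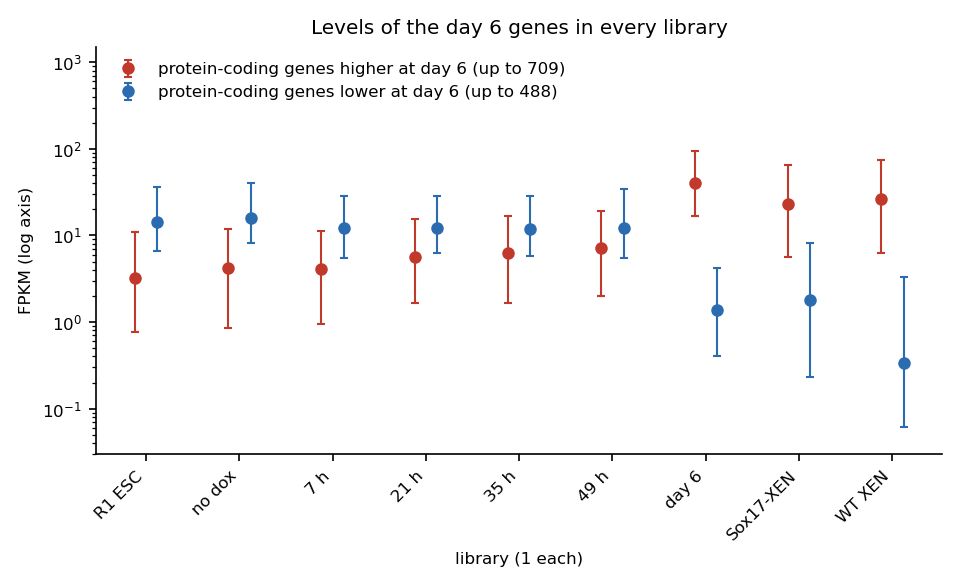
Points are median FPKM (log axis) and bars the quartiles of protein-coding genes higher (red) or lower (blue) at day 6, in each of the 9 libraries. Through 49 h the higher genes have medians of 3.22 to 7.23 FPKM, against 40.7 at day 6; the lower genes have medians of at least 11.7 FPKM until 49 h and 1.38 at day 6.

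Wild-type XEN against R1 shares no library with the day 6 comparison. By the same rule 1234 genes were higher (9.15%) and 980 lower (7.27%) of 13480. Among 12738 genes compared in both, 406 of 689 higher at day 6 were also higher in wild-type XEN, which is 58.9% of the day 6 list and 36.1% of the XEN list, where 8.82% of all were higher. Of 549 lower genes, 377 were also lower, which is 68.7% of the day 6 list and 39.5% of the XEN list, where 7.49% of all were lower. Srgn, Gata4 and Serpinh1 were among genes abundant in both.

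Some higher genes had almost no RNA in the XEN lines. Of protein-coding higher genes, 88.9% reached 1 FPKM in wild-type XEN and 87.8% in Sox17-XEN. Among protein-coding genes called in neither direction it was 85.0% and 87.5%. A level under 1 FPKM in each line was thus no more frequent among higher genes. Of 703 protein-coding higher genes with values in both XEN lines, 57 were under 1 FPKM in both. The most abundant of these at day 6 were Amn (356 FPKM), Apoc1 (275), Fmr1nb† (114), Cldn7 (93.2), Ap1m2 (67.8) and Plbd1 (57.4); Apom, Apoc2†, Apoa1, Apob, Muc13† and Afp were also in this set. In the other direction, Tfrc, Myc and Vim were lower at day 6 but at 50.2, 29.1 and 665 FPKM in wild-type XEN.

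Genes called in opposite directions were few: 19 were higher at day 6 and lower in wild-type XEN than in R1, of which 10 were protein-coding, and 9 the reverse, of which 2 were. Apoc1 differed by 3.84 at day 6 and by -4.84 in wild-type XEN. Igf2 differed by 4.18 and -3.54, Hexa, the lysosomal hexosaminidase, by 3.29 and -3.16, Cldn7 by 2.97 and -4.19, the protease Htra1† by 4.02 and -2.76, and Fmr1nb by 3.30 and -4.72. The reverse pair was Flrt2, at -2.64 and 2.55, and the imprinted Plagl1, at -2.36 and 3.66. Hexa stood at 1.7 FPKM in wild-type XEN, 247 at day 6 and 28.2 in Sox17-XEN.

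**Figure D5:**
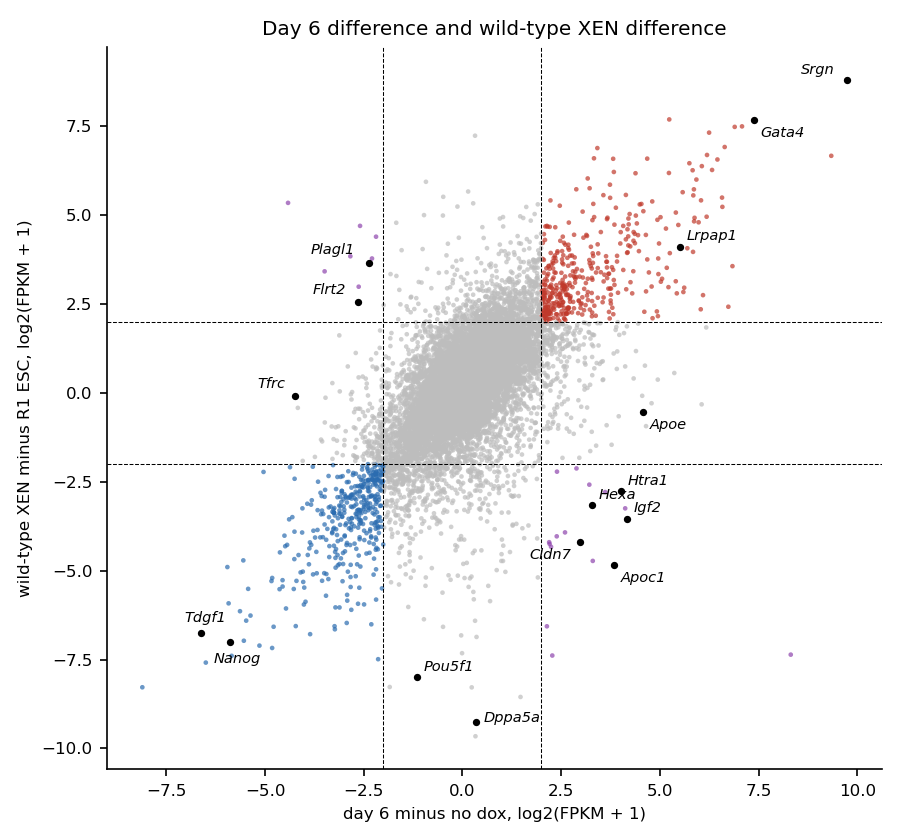
Each point is a gene compared in both pairs, with day 6 minus uninduced on the horizontal axis and wild-type XEN minus R1 on the vertical axis, in log2(FPKM + 1); dashed lines mark 2 and -2. Red (406) and blue (377) genes are called the same way in both pairs, purple genes in opposite ways (19 and 9), and Dppa5a and Pou5f1 lie within 2 of 0 on the horizontal axis but far below -2 on the vertical one.

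The threshold of 2 cuts through a continuous range. Just inside it were Dnajc3‡ (2.01), Rrbp1‡ (2.01) and Slc31a1†‡ (2.0), and just outside Mfsd1 (2.0), Rpn2† (1.99), Lifr (1.99) and F3 (1.99). On the lower side Cald1† (-2.02) and Ndn (-2.02) lay just inside and Ephx1 (-1.98) just outside. A stricter reading also asked that the deposited confidence intervals of the 2 libraries not overlap. By that rule 7 genes were higher, Sparc, Lamb1, Clic6, Foxq1, Klb, Amn and Lama1, and 2 lower, Tdgf1 and Trh. The day 6 intervals of Sparc (6042 to 6073 FPKM), Lamb1 (1698 to 1712) and Lama1 (1167 to 1172) were unusually narrow. Lamc1, at 1134 FPKM, had an interval of 0 to 27221. Passing thus depends on the deposited interval width as well as on the difference.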

How the data were processed

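Total RNA was extracted with Trizol and sequenced as TruSeq RNA libraries, per the labels' protocols; reads were processed with TopHat2 2.0.11, Cufflinks 2.1.2 and Cuffdiff (version not given in the sources used here) on mm9, per the submitters' processing notes. The authors deposited FPKM values with confidence bounds and a status per gene and library; read counts were not analysed here. Only values with status OK were used, log2(FPKM + 1) was taken (pseudocount 1, which understates differences of low genes), and genes reaching 1 FPKM in either library were kept. Gene type came from GENCODE M21, matched for 32917 rows. Calls were made with Python 3.11.15 and pandas 2.3.3. The code was checked on a scaled copy of the uninduced library, without noise, with large changes added. That check gives no error rate for the calls. Named genes are the 15 protein-coding genes with the largest difference each way, Sox17, the 5 markers, up to 6 members of each of 89 lists, up to 6 genes opposite in XEN each way, and the most abundant genes; members and lists were chosen with earlier results of these data known, and further members were named after their values were seen. Alternatives covered the pseudocount, filter, threshold, scaling, status, reference library and shared loci. One library per group allows no SD, p-value or leave-one-out.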

Additional observations from a re-analysis of the deposited data

How the results depend on the processing

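The counts of 771 higher and 578 lower genes stayed within 1.5 times of themselves when values were rescaled (593 and 661), when R1 replaced the uninduced line (1015 and 513), without the minimum level (771 and 578), with a minimum of 5 FPKM (745 and 518), with every status (785 and 592) and in protein-coding genes (709 and 488). Leaving out the feeder and contractile lists, an alternative chosen after seeing the data, gave 771 and 549. They moved further with a pseudocount of 0.1 (1161 and 1294) or 5 (386 and 180), with a threshold of 1 (2639 and 1910) or 3 log2 units (285 and 177), without rows that share a locus (464 and 348, fewer genes tested), and with separate intervals (7 and 2). Unique members of the gene lists called higher, 286, became 182 with a pseudocount of 5, 669 and 135 at 1 and 3 log2 units, and 7 with separate intervals; members called lower, 208, became 350 and 99 with pseudocounts of 0.1 and 5, 483 and 76 at the 2 thresholds, and 2 with separate intervals. The overlap with wild-type XEN ran from 51.5% to 67.6% of the higher and from 61.6% to 77.1% of the lower day 6 genes. Of 1435 recomputed differences of 359 named genes, 1241 kept direction and side of the threshold, 192 no longer passed, 2 newly passed and 0 reversed. Under all 4 alternatives, 213 of the 359 genes stayed the same. Many were named for large differences in these libraries, and a pseudocount cannot reverse a sign, so the lack of reversals says little. The feeder list's median was -1.60 with R1 as reference. No paired analysis was possible because each group has 1 library. Depth was about 58.2% of the uninduced library at day 6, and small differences of low genes were not resolvable.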

Other observations

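Rows annotated as small RNAs were called more often than other rows. Of 19 miRNA rows compared, 6 were higher and 11 lower at day 6, and of 89 snoRNA rows, 10 were higher and 26 lower, with median differences of -3.14 and -0.69 against 0.17 for protein-coding genes. These rows are in none of the gene classes of the report. FPKM is scaled by transcript length, and how well these libraries measure such short RNAs was not tested. The calls of these rows are therefore no result about small RNAs.

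Over the autosomes and chromosome X, the share of genes higher ran from 3.63% of 661 on chromosome 8 to 8.84% of 701 on chromosome 9, and the share lower from 2.65% of 603 on chromosome 17 to 7.18% of 418 on chromosome X, beside 5.69% and 4.27% of all genes. On chromosome X 8.61% were higher. No test of these shares was made. Lysosomal and uptake classes gained in share of summed FPKM next to one another: cathepsins held 0.117% in the uninduced line and 1.29% at day 6, and apical uptake genes 0.081% and 1.08%. Transcripts of the mitochondrial genome held 6.44% and 5.63%.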
